A study of Saccharomyces cerevisiae with 12 samples.

Results

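Yeast cells that lack *NCS2* and *ELP6* but keep *HEL2* (*ncs2*∆*elp6*∆) were compared with wild type by 5PSeq, gene by gene. Of the 6302 genes in the count table, all 3378 that passed a filter for low counts across the 12 libraries of the series were tested and are described here by pathway and function. Both strains are BY4741, a haploid *Saccharomyces cerevisiae* laboratory strain, and both carry MATa *his3*Δ1 *leu2*Δ0 *ura3*Δ0. The mutant is *ncs2*Δ::HIS3MX *elp6*Δ::URA3, and the wild type is also *met15*Δ0 by its label. The mutant therefore differs from wild type in 2 deletions, in 2 nutritional markers and, as labelled, in *met15*, and effects of these differences cannot be told apart. Each strain has 3 libraries, from cells grown in rich medium (YPD) at 30°C with shaking at 200 rpm. A further comparison used the same deletions without *HEL2*, *ncs2*∆*elp6*∆*hel2*∆ (with *hel2*Δ::LEU2) against *hel2*∆ (*hel2*Δ::LEU2), with 3 libraries each. The labels do not say whether replicates were separate cultures, so p-values measure the spread between these libraries only.

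Transfer RNAs that read codons ending in A or G often carry a modified uridine at position 34, the first base of the anticodon. The Elongator complex, of which Elp6 is a subunit, builds a side chain on the ring of this base, and the URM1 pathway, which includes Ncs2, adds sulfur to it in the tRNAs for lysine, glutamine and glutamate. Without these modifications ribosomes slow at some of the codons that these tRNAs read, and slow ribosomes can collide. Hel2 is a ubiquitin ligase that marks collided ribosomes and starts ribosome-associated quality control (RQC), in which the nascent protein is degraded by the proteasome and the mRNA can be cut. 5PSeq counts mRNA fragments with a 5′ monophosphate, which form during decapping and endonucleolytic cleavage. A gene can thus have more 5PSeq reads because its mRNA is more abundant or because more of it is being degraded. mRNA levels were not used here, so these cases cannot be told apart in any value below, and neither can fewer cells of a kind and less RNA per cell.

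The *ncs2*∆*elp6*∆ libraries held between 227838 and 295085 counted reads each, and the wild-type libraries between 155659 and 225293. All levels are given as CPM, a gene's reads scaled to a common library total after TMM, a method that allows for differences in composition between libraries. The smallest share that 3 reads can show was between 0.00102% and 0.00132% of a mutant library and between 0.00133% and 0.00193% of a wild-type library, for counting error only. The libraries also varied within strains along a shared pattern, here called the library factor. It is the leading axis along which same-strain replicates differed and held 21.5% of their variance. Its values lay between −1.74 and −0.79 in *ncs2*∆*elp6*∆, against −0.35 and 1.45 at the ends of the wild-type range, and replicate 2 of each strain lay farthest out. The strains did not overlap on the library factor, so as a covariate it can also take up a difference between the strains. Reads on the 530 listed open reading frames that RefSeq does not annotate made up 0.126% to 0.179% of reads in *ncs2*∆*elp6*∆ and 0.355% to 0.571% in wild type. Markers of mating type followed the MATa genotype. The list of 8 a-cell genes had 224 to 307 reads per mutant library and 225 to 352 per wild-type library, with at most 1 gene at 0. Of the 3 alpha-cell genes, 1 or 2 had no read in each of these libraries, and the 20 to 30 reads of the mutant libraries and the 11 to 13 of the wild-type libraries lay almost wholly on *SAG1*, the alpha-agglutinin gene.

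Reads on the deleted genes checked the labels. *NCS2* (YNL119W), which encodes a protein of the URM1 thiolation pathway, had no read in any *ncs2*∆*elp6*∆ library, against 8, 5 and 5 reads in the wild-type libraries. *ELP6* (YMR312W) had 2, 1 and 1 reads in *ncs2*∆*elp6*∆ and 7, 6 and 7 in wild type. Both genes were thus lowest in the strain that lacks them, with few reads in either strain. *HEL2* (YDR266C) was present in both, with 25, 40 and 24 reads in *ncs2*∆*elp6*∆ and 24, 14 and 10 in wild type, and its log2 fold change was 0.17 (SE 0.31, adjusted p = 0.72). The markers were poorly covered. *HIS3* had 4, 5 and 11 reads in *ncs2*∆*elp6*∆ and 2, 2 and 4 in wild type, while *URA3* and *LEU2* had at most 1 read in each of these 6 libraries. *MET17* (YLR303W), the current name of *MET15*, had 7, 15 and 17 reads in *ncs2*∆*elp6*∆ but also 8, 8 and 12 in wild type, where the label gives a deletion. Among the genes next to the deletions, *GLC8* beside *ELP6* rose by 0.96 on the log2 scale (adjusted p = 0.0241), and *TGL3*, *TOM70* and *DCP2* had adjusted p-values between 0.382 and 0.638.

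Between *ncs2*∆*elp6*∆ and wild type, 5PSeq reads of 1016 genes differed with an adjusted p below 0.05 (quasi-likelihood test of edgeR, Benjamini-Hochberg adjustment over all 3378 genes), and 1375 had an unadjusted p below it. Reads rose for 453 genes (13.4% of those tested) and fell for 563 (16.7%). The change was at least 2-fold for 268 of the genes that rose and 457 of those that fell. Without overlap between the CPM of the 3 mutant and the 3 wild-type libraries were 1471 genes (43.5%), and 977 of the 1016 were among them. The median log2 fold change over all genes tested was 0.04, with quartiles of −0.48 and 0.51. These shares and this median are the background for each gene list below. A covariate for the library factor lowered the counts to 142 higher and 308 lower, and leaving out replicate 2 of both strains lowered them to 224 higher and 420 lower.

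The gene with the largest rise was *ARG4* (YHR018C), the argininosuccinate lyase that makes arginine, with 1274, 1315 and 857 CPM in the *ncs2*∆*elp6*∆ libraries and 145, 130.0 and 146 CPM in wild type. All mutant libraries were far above all wild-type libraries, and reads rose by 3.03 on the log2 scale (SE 0.25, adjusted p = 2.38e-08). *SPO24* (YPR036W-A), a short open reading frame named for sporulation, had 585, 593 and 555 CPM in *ncs2*∆*elp6*∆ and 49.9, 103 and 138 CPM in wild type (log2 fold change 2.65, SE 0.30, adjusted p = 6.68e-07). *ALD5* (YER073W), a mitochondrial aldehyde dehydrogenase, had 896, 482 and 543 CPM in *ncs2*∆*elp6*∆ and 99.8, 171 and 160.2 CPM in wild type (log2 fold change 2.18, SE 0.27, adjusted p = 1.39e-06). The other large rises were spread over the proteasome (*SCL1*, *PRE6*), chaperones (*MDJ1*, *YKE2*), polyubiquitin (*UBI4*), iron binding at the cell wall (*FIT2*), the decapping activator *LSM1* and the ribosomal protein gene *RPS21B*, whose call was lost when *ncs2*∆*elp6*∆ replicate 2 was left out.

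The largest falls among genes with at least 60 reads in the 6 libraries came from many lists or from none. *CDA1* (YLR307W), a chitin deacetylase of the spore wall, had 11.9, 36.1 and 28.2 CPM in *ncs2*∆*elp6*∆ and 327, 287 and 364 CPM in wild type (log2 fold change −3.60, SE 0.42, adjusted p = 8.18e-07). *TFA2* (YKR062W), a subunit of the transcription factor TFIIE, had 315, 352 and 411 CPM in *ncs2*∆*elp6*∆ and 2636, 4804 and 4311 CPM in wild type (log2 fold change −3.44, SE 0.34, adjusted p = 1.03e-07). *ECL1* (YGR146C), a gene linked to chronological lifespan, had 39.8, 45.2 and 64.4 CPM in *ncs2*∆*elp6*∆ and 449, 643 and 539 CPM in wild type (log2 fold change −3.43, SE 0.32, adjusted p = 8.20e-08). In each of these every mutant library lay far below every wild-type library. *UPS1* (YLR193C), which carries phosphatidic acid between mitochondrial membranes, rested on 2, 4 and 1 reads in *ncs2*∆*elp6*∆ and 13, 43 and 23 in wild type, and had a log2 fold change of −4.21 (SE 0.62, adjusted p = 1.26e-05). *YMR317W*, an uncharacterised reading frame, had at most 3 reads in any mutant library and was at least 12.2-fold lower than in wild type. Genes so little read in either strain, here and below, can pass the filter through the strains where they are higher. The direction of such changes is therefore not independent of the filter. *URA10*, *MSS1*, *PHO84*, *POC4*, *LDH1*, *SRB5* and *YGL182C* completed the 12 largest falls.

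**Figure D1:**
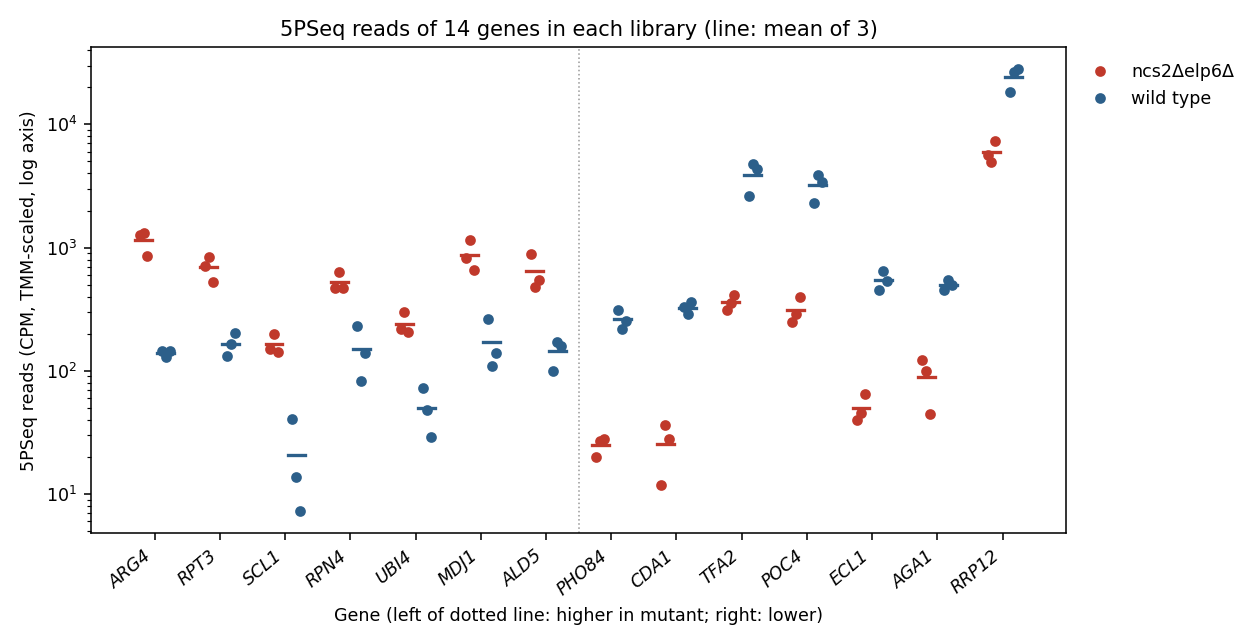
CPM (TMM-scaled, log axis) of 14 genes in each *ncs2*∆*elp6*∆ library (red) and each wild-type library (blue), with a line at the mean of 3. For all 14 genes the libraries of the strains do not overlap, from *ARG4* with 857 CPM or more in *ncs2*∆*elp6*∆ and 146 or less in wild type, to *RRP12* with 7358 or less in *ncs2*∆*elp6*∆ and 18425 or more in wild type.

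A group of genes that took very many reads in wild type fell together. Of the 20 genes with the highest mean CPM over the 12 libraries, 13 fell in *ncs2*∆*elp6*∆, 1 rose (*CCW12*, a cell wall mannoprotein) and 6 were not called. The 13 were picked by their levels after the data were seen. They include *RRP12* (a ribosome export factor), *USO1* (a vesicle tether), *BRR2* (a helicase of the spliceosome), *CMR1*, *DPB2*, *FAD1*, *SPT10*, *AAR2*, *SIS1*, *PFK1* and the retrotransposon frame *YLR035C-A*. Also among them are *MLS1* and *POT1*, which encode malate synthase and the thiolase of fatty acid oxidation and are known as genes repressed by glucose. Together they held 4.89%, 4.63% and 6.19% of all reads in the *ncs2*∆*elp6*∆ libraries, against 13%, 15.9% and 16.9% in wild type. *RRP12* (YPL012W) had 5629.6, 4994 and 7358 CPM in *ncs2*∆*elp6*∆ and 18425, 26652 and 27931 CPM in wild type (log2 fold change −2.02, SE 0.38, adjusted p = 2.44e-04). *MLS1* (YNL117W) had 2062, 1887 and 2544 CPM in *ncs2*∆*elp6*∆ and 6869, 10736 and 10980.2 CPM in wild type (log2 fold change −2.14, SE 0.34, adjusted p = 3.38e-05). The log2 fold changes of the 13 kept within −2.33 and −1.27. Their share of reads also differed within a strain outside the comparison, since it was 11.9%, 5.83% and 11.1% in the *ncs2*∆*elp6*∆*hel2*∆ libraries, against 14.8%, 18.4% and 13.5% in *hel2*∆. Across all genes tested, the difference between *ncs2*∆*elp6*∆*hel2*∆ replicates 3 and 2 had a correlation of −0.62 with the log2 fold change of *ncs2*∆*elp6*∆ against wild type. Its median was 0.65 for the genes that fell and −0.38 for those that rose. The part of such variation between libraries in the falls and rises given here was not tested.

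Genes of the proteasome, the complex that degrades ubiquitylated proteins, rose together. Of 14 listed genes for the 20S core, which holds the proteolytic sites, 12 were tested and 8 rose, none fell, and the median log2 fold change was 1.17. All 12 had a positive value, between 0.60 and 2.79. Of the 19 genes for the 19S regulatory particle, which binds and unfolds substrates, 7 rose and 1 fell, with a median of 0.96. *SCL1* (YGL011C), an alpha subunit of the core, had 151, 199 and 141 CPM in *ncs2*∆*elp6*∆ and 40.8, 13.7 and 7.28 CPM in wild type (log2 fold change 2.79, SE 0.43, adjusted p = 2.15e-05), with 9, 2 and 1 reads behind the wild-type values. *RPT3* (YDR394W), an ATPase of the 19S base, had 709, 839.8 and 523 CPM in *ncs2*∆*elp6*∆ and 132, 164 and 204 CPM in wild type (log2 fold change 2.08, SE 0.24, adjusted p = 7.31e-07). The lowest mutant library exceeded the highest wild-type library more than 2-fold for both genes. *PRE6* rose by 2.51, *RPT4* by 1.72 and *RPN2* by 1.67 on the log2 scale. The exception was *RPN10* (YHR200W), a ubiquitin receptor, with 916, 897 and 994 CPM in *ncs2*∆*elp6*∆ and 1452, 1902 and 1828 CPM in wild type (log2 fold change −0.88, SE 0.21, adjusted p = 0.00240). With the library factor as a covariate, 2 of the 12 core genes and 5 of the 19 regulatory genes stayed called higher, with medians of 0.83 and 0.41. Without replicate 2 of both strains, 4 and 6 were called higher.

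*RPN4* (YDL020C), the transcription factor that activates proteasome genes, rose as well, with 474, 638 and 471 CPM in *ncs2*∆*elp6*∆ and 231, 82.1 and 138 CPM in wild type (log2 fold change 1.75, SE 0.29, adjusted p = 5.62e-05). Among the 20 genes tested of the Cdc48 and ubiquitin list, 5 rose and 2 fell, and 8 rose when wild-type replicate 2 was left out. Leaving out any 1 of the 6 libraries left 1 gene lower. *UBI4* (YLL039C), the polyubiquitin gene used under stress, had 219, 301 and 205 CPM in *ncs2*∆*elp6*∆ and 72.6, 47.9 and 29.1 CPM in wild type (log2 fold change 2.20, SE 0.32, adjusted p = 1.20e-05). *UFD1*, a Cdc48 cofactor, rose by 1.89 and *UBC4*, a ubiquitin-conjugating enzyme, by 1.43 on the log2 scale. *UFD4* (YKL010C), a ubiquitin ligase, went the other way, with a log2 fold change of −1.96 (adjusted p = 1.39e-06). The list of proteasome assembly factors and regulators did not follow the subunits. Of 8 tested, *RPN4* and *UBP6* rose and *POC4* and *PBA1* fell, and *PBA1* lost its call without *ncs2*∆*elp6*∆ replicate 1 or 3 or wild-type replicate 3. *POC4* (YPL144W), a chaperone of core assembly, had 247, 289 and 394 CPM in *ncs2*∆*elp6*∆ and 2314, 3900.3 and 3386 CPM in wild type (log2 fold change −3.36, SE 0.33, adjusted p = 9.75e-08).

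**Figure D2:**
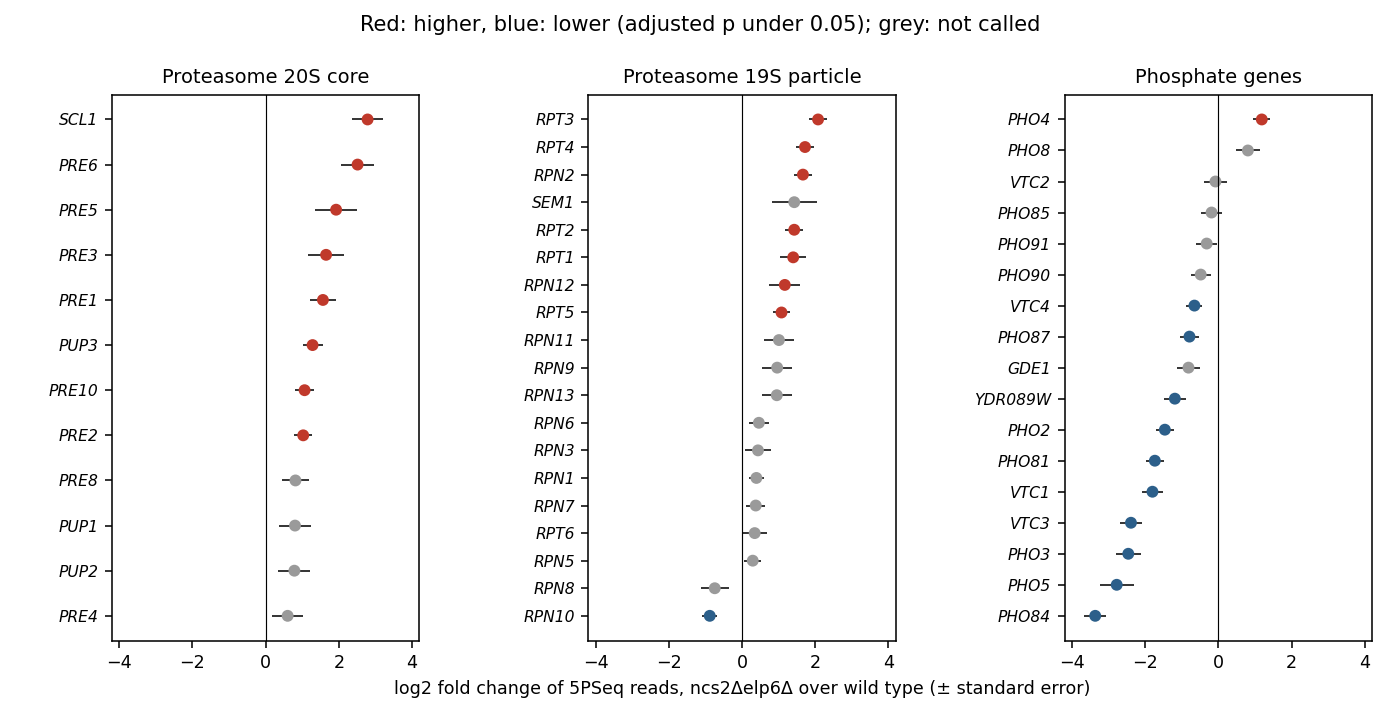
Log2 fold change of 5PSeq reads, *ncs2*∆*elp6*∆ over wild type, for each tested gene of the 20S core, the 19S particle and the phosphate list (points; bars are the standard error; red called higher, blue called lower, grey not called). All 12 core genes lie right of 0, *RPN10* is the called exception in the 19S particle, and 10 of 17 phosphate genes are called lower while *PHO4* is called higher.

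Genes for amino acid synthesis changed in both directions, and not as a single block. In the arginine pathway 3 of 6 tested genes rose and 1 fell, with a median log2 fold change of 1.15. Beside *ARG4*, the ornithine acetyltransferase gene *ARG7* (YMR062C) had 159, 235 and 201 CPM in *ncs2*∆*elp6*∆ and 45.4, 47.9 and 87.4 CPM in wild type (log2 fold change 1.77, SE 0.30, adjusted p = 6.76e-05). The gene for the acetylornithine aminotransferase, *ARG8* (YOL140W), had 59.7, 60.2 and 96.6 CPM in *ncs2*∆*elp6*∆ and 295, 452 and 400.5 CPM in wild type (log2 fold change −2.40, SE 0.31, adjusted p = 2.75e-06). The strains were thus separated in opposite directions for enzymes of the same pathway. Of 8 lysine genes tested, 5 rose and 1 fell, with a median of 1.23. *LYS20* (YDL182W), a homocitrate synthase, had 410.1, 217 and 309.9 CPM in *ncs2*∆*elp6*∆ and 81.7, 103 and 87.4 CPM in wild type (log2 fold change 1.78, SE 0.28, adjusted p = 2.14e-05). *LYS2* (YBR115C), the aminoadipate reductase, had 533, 409 and 531 CPM in *ncs2*∆*elp6*∆ and 186, 205 and 124 CPM in wild type (log2 fold change 1.50, SE 0.26, adjusted p = 9.34e-05). Against these rises the pathway's own activator, *LYS14*, fell by 1.28 on the log2 scale.

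The branched-chain genes were split, with 5 of 12 higher and 3 lower. *LEU4* (YNL104C), the main isopropylmalate synthase, had 1262, 701 and 1038 CPM in *ncs2*∆*elp6*∆ and 544, 472 and 277 CPM in wild type (log2 fold change 1.19, SE 0.26, adjusted p = 9.56e-04). Its paralog *LEU9* (YOR108W) had 179, 199 and 246 CPM in *ncs2*∆*elp6*∆ and 1057, 1334 and 1471 CPM in wild type (log2 fold change −2.63, SE 0.28, adjusted p = 3.89e-07). *ILV5* and *LEU1* rose by 1.10 and 1.06 and the aminotransferase gene *BAT2* fell by 1.50 on the log2 scale. *HIS4* (YCL030C), an enzyme of histidine synthesis, had 701, 837 and 1107 CPM in *ncs2*∆*elp6*∆ and 2332, 3284 and 3226 CPM in wild type (log2 fold change −1.74, SE 0.26, adjusted p = 1.26e-05), and none of the other 3 histidine genes tested was called. In the aromatic pathway 2 genes rose and 2 fell of 10, with 1 lower without wild-type replicate 1. Of 18 genes for threonine, serine, glycine, proline, glutamate and aspartate, 4 rose and 2 fell, and 1 rose without replicate 1 of either strain or wild-type replicate 3. *SHM2*, a serine hydroxymethyltransferase, fell by 1.57 on the log2 scale. Of 16 genes for sulfate assimilation and methionine 5 fell and 1 (*MET4*) rose, a rise not called without *ncs2*∆*elp6*∆ replicate 1, and *MET6*, the methionine synthase, had a log2 fold change of −1.38 (adjusted p = 5.90e-04).

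*GCN4* (YEL009C), the activator of amino acid genes in the general control response, was not called. It had 51.8, 114 and 64.4 CPM in *ncs2*∆*elp6*∆ and 36.3, 68.4 and 51.0 CPM in wild type, with overlap between the strains (log2 fold change 0.65, SE 0.38, adjusted p = 0.211). Of 13 regulators on the list for this response, 3 rose and 3 fell. *GCN3* (YKR026C), the alpha subunit of the initiation factor eIF2B, fell most, with 111, 87.3 and 133 CPM in *ncs2*∆*elp6*∆ and 463, 698 and 830.1 CPM in wild type (log2 fold change −2.58, SE 0.28, adjusted p = 3.91e-07). Without wild-type replicate 3, 0 of the 13 were called higher, without wild-type replicate 2, 1 was, and without *ncs2*∆*elp6*∆ replicate 1 or wild-type replicate 1, 1 was called lower. Permeases moved by their own pattern, with 2 of 13 higher and 2 lower, and 1 higher without any 1 library other than wild-type replicate 1. *BAP2* (YBR068C), a permease for branched-chain amino acids, had 5116, 3146 and 3711 CPM in *ncs2*∆*elp6*∆ and 1760.4, 1546 and 1529 CPM in wild type (log2 fold change 1.31, SE 0.23, adjusted p = 9.10e-05). *TAT2* (YOL020W), a tryptophan permease, had 263, 536 and 527 CPM in *ncs2*∆*elp6*∆ and 1833, 2128 and 2825 CPM in wild type (log2 fold change −2.35, SE 0.30, adjusted p = 1.89e-06).

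Ribosomal protein genes were mostly shifted upward in *ncs2*∆*elp6*∆, by less than proteasome genes. For the large cytosolic subunit, 23 of 71 tested genes rose and 2 fell, with a median log2 fold change of 0.64. For the small subunit, 21 of 51 rose and 0 fell, with a median of 0.58. Most of these proteins have a near-identical paralog, and reads that matched both copies were not counted, so single genes of a pair are uncertain. *RPL11A* (YPR102C) and its paralog *RPL11B* rose most in the large subunit. *RPL11A* had 3707, 3772 and 2503 CPM in *ncs2*∆*elp6*∆ and 1139, 561 and 1129 CPM in wild type (log2 fold change 1.81, SE 0.27, adjusted p = 1.20e-05). *RPS14B* (YJL191W) had 406, 539 and 487 CPM in *ncs2*∆*elp6*∆ and 136, 109 and 131 CPM in wild type (log2 fold change 1.92, SE 0.23, adjusted p = 1.30e-06). *RPL29* (YFR032C-A) fell, with 832, 804 and 1139 CPM in *ncs2*∆*elp6*∆ and 2409, 2826 and 2716 CPM in wild type (log2 fold change −1.52, SE 0.25, adjusted p = 4.53e-05). These counts moved with the library factor. With it as a covariate 2 genes of each subunit were called higher and the medians were −0.02 and 0.04. Without *ncs2*∆*elp6*∆ replicate 2 there were 14 and 8 higher, and without wild-type replicate 2 there were 11 and 11, the numbers for the large subunit given before those for the small. Within each strain the mean log2 CPM of these genes varied by library. Relative to all genes tested, the large-subunit genes had 0.48, 1.10 and 0.67 in *ncs2*∆*elp6*∆, and 0.41, −0.17 and 0.15 in wild type. The mutant libraries were higher on average, but replicate 1 of the strains differed little.

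Genes that assemble ribosomes showed a smaller shift, with 14 of 68 higher, 4 lower and a median of 0.26. *RRP12* and *DBP7*, a nucleolar helicase, were among those that fell. The number higher was 8 without *ncs2*∆*elp6*∆ replicate 2 or wild-type replicate 3, and 7 without wild-type replicate 2. The number lower was 2 without *ncs2*∆*elp6*∆ replicate 3 or wild-type replicate 2. Of 32 mitochondrial ribosomal protein genes tested, 6 rose and 2 fell, and 3 rose without replicate 2 of either strain. Aminoacyl-tRNA synthetases, which charge tRNAs, had a median of 0.02, with 2 of 20 higher and none lower, and 1 higher without replicate 1 of either strain or replicate 3 of either strain. *THS1*, the threonyl-tRNA synthetase, rose by 0.91 on the log2 scale (adjusted p = 0.00253). Translation factors had a median of −0.05, with 2 of 28 higher and 3 lower, and 1 lower without replicate 2 of either strain. *TIF34* (YMR146C), a subunit of initiation factor eIF3, had 1055, 1352 and 966 CPM in *ncs2*∆*elp6*∆ and 567, 383 and 517 CPM in wild type (log2 fold change 1.19, SE 0.23, adjusted p = 2.79e-04). In the Elongator and URM1 pathway itself, 3 of 12 genes tested rose (*TRM112*, *ELP3* and *SIT4*) and none fell. Without wild-type replicate 2, 1 gene rose, *ELP3* was not called without wild-type replicate 3 either, and *SIT4* was not called without replicate 1 or 2 of either strain.

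The machinery of RQC and no-go decay changed at single genes. Of 21 tested, 3 rose (14.3%) and 2 fell (9.52%), and the median was 0.15. These shares are near or below those of all genes tested, 13.4% higher and 16.7% lower. *TAE2* (YPL009C), known as Rqc2, which binds stalled large subunits, had 729, 1036 and 801 CPM in *ncs2*∆*elp6*∆ and 240.5, 103 and 371 CPM in wild type (log2 fold change 1.85, SE 0.36, adjusted p = 3.29e-04). *MBF1* (YOR298C-A), which keeps collided ribosomes in frame, had 1719.9, 2252 and 1747 CPM in *ncs2*∆*elp6*∆ and 780.4, 458 and 735 CPM in wild type (log2 fold change 1.53, SE 0.23, adjusted p = 1.76e-05). Every mutant library was above every wild-type library for both. The ubiquitin ligase that marks stalled nascent chains, *RKR1* (YMR247C, Ltn1), had 469.8, 512 and 503 CPM in *ncs2*∆*elp6*∆ and 989, 1649 and 1660.1 CPM in wild type (log2 fold change −1.52, SE 0.25, adjusted p = 5.09e-05). *SLH1*, a helicase that splits collided ribosomes, fell by 1.05 on the log2 scale. Among 29 genes for mRNA decay, 4 rose (13.8%) and 3 fell (10.3%), also near or below the shares of all genes. *XRN1* (YGL173C), the 5′ to 3′ exonuclease that consumes 5′-monophosphate mRNA, had 366, 319 and 402 CPM in *ncs2*∆*elp6*∆ and 567, 807 and 561 CPM in wild type (log2 fold change −0.83, SE 0.20, adjusted p = 0.00251). *LSM1* (YJL124C), a subunit of the decapping activator, had 55.7, 90.3 and 64.4 CPM in *ncs2*∆*elp6*∆ and 9.07, 6.84 and 36.4 CPM in wild type, from 2, 1 and 5 wild-type reads (log2 fold change 2.11, SE 0.49, adjusted p = 0.00172). *EDC1*, an enhancer of decapping, rose by 1.72 and *LSM2*, a shared Lsm ring subunit, fell by 1.92 on the log2 scale. With the library factor as a covariate *TAE2*, *SLH1*, *XRN1* and *LSM1* were not called. Without replicate 2 of both strains *SLH1*, *XRN1* and *LSM1* were not called. In both settings *MBF1*, *RKR1*, *EDC1* and *LSM2* stayed called.

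Chaperone genes were called in both directions. Of 34 cytosolic chaperone and heat shock genes tested 6 rose, a share of 17.6% that is near the 13.4% of all genes, and 2 fell, with a median of 0.33, and 4 fell without wild-type replicate 3. *YKE2* (YLR200W), a prefoldin subunit, had 111, 181 and 121 CPM in *ncs2*∆*elp6*∆ and 31.8, 20.5 and 29.1 CPM in wild type (log2 fold change 2.31, SE 0.44, adjusted p = 2.49e-04). *SBA1*, a cochaperone of Hsp90, rose by 2.03 on the log2 scale (adjusted p = 8.33e-05). *SIS1* (YNL007C), a cytosolic Hsp40, had 1553, 2261 and 2439 CPM in *ncs2*∆*elp6*∆ and 6012, 8519 and 9014 CPM in wild type (log2 fold change −1.91, SE 0.30, adjusted p = 2.50e-05), and *SGT1* fell by 2.46. *SIS1* is among the 13 much-read genes that fell, described above. In mitochondria, *MDJ1* (YFL016C), the matrix Hsp40, had 820.2, 1149.9 and 664 CPM in *ncs2*∆*elp6*∆ and 263, 109 and 138 CPM in wild type (log2 fold change 2.31, SE 0.35, adjusted p = 1.72e-05), and the import channel gene *TIM23* rose by 1.67. In the endoplasmic reticulum list 3 of 15 rose and none fell, with a median of −0.16, and 1 rose without wild-type replicate 2. The CCT chaperonin, which folds actin and tubulin, had 3 of 9 genes higher, 1 without replicate 3 of either strain, and its cofactor gene *PLP2* at −2.20. *HSF1*, the heat shock factor, had a log2 fold change of −0.43 (SE 0.20, adjusted p = 0.106).

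Genes for redox defence were higher in part, and genes for iron changed in both directions. The list for the pentose phosphate pathway and oxidative stress had a median of 0.68, with 7 of 21 genes higher and 3 lower, and 4 higher when *ncs2*∆*elp6*∆ replicate 1 or 3 or wild-type replicate 3 was left out. *CCS1* (YMR038C), the copper chaperone of superoxide dismutase, had 581, 578 and 523 CPM in *ncs2*∆*elp6*∆ and 213, 116 and 277 CPM in wild type (log2 fold change 1.47, SE 0.26, adjusted p = 9.10e-05). The genes of this list that fell were all enzymes of the pentose phosphate pathway. *SOL4* (YGR248W), a lactonase, had 23.9, 21.1 and 24.1 CPM in *ncs2*∆*elp6*∆ and 149.7, 253 and 167 CPM in wild type (log2 fold change −3.00, SE 0.40, adjusted p = 3.10e-06). The transketolase paralog *TKL2* fell by 2.88 and the transaldolase gene *TAL1* by 0.96, a call lost without *ncs2*∆*elp6*∆ replicate 1 or 3 or wild-type replicate 2 or 3. In the iron regulon 6 of 25 rose and 4 fell, with a median of 0.05, and 3 rose without *ncs2*∆*elp6*∆ replicate 1 or 3. *FIT2* (YOR382W), a mannoprotein that retains siderophores in the wall, had 195, 123 and 181 CPM in *ncs2*∆*elp6*∆ and 27.2, 34.2 and 51.0 CPM in wild type (log2 fold change 2.18, SE 0.39, adjusted p = 1.13e-04). *ISU1*, a scaffold for iron-sulfur clusters, rose by 1.43, while the siderophore transporter gene *ENB1* fell by 2.10 and *BIO5*, a vitamin precursor transporter, by 1.72. *AFT1*, the activator of this regulon, had a log2 fold change of 0.49 (SE 0.21, adjusted p = 0.0734). All 3 called genes of the vacuolar proton pump rose, out of 11 tested, and 1 was called higher when *ncs2*∆*elp6*∆ replicate 2 or wild-type replicate 1 or 3 was left out.

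Phosphate genes fell together. This regulon takes up and stores phosphate. Its transcription factors are Pho4 and Pho2, and Pho4 is held back by the kinase Pho85 when phosphate is plentiful. Of 28 listed genes 17 were tested, and 10 fell and 1 rose, with a median log2 fold change of −0.82. *PHO84* (YML123C), the high-affinity phosphate transporter, had 19.9, 27.1 and 28.2 CPM in *ncs2*∆*elp6*∆ and 313, 219 and 255 CPM in wild type (log2 fold change −3.37, SE 0.30, adjusted p = 4.80e-08). *PHO5* (YBR093C), the secreted acid phosphatase, had 15.9, 21.1 and 24.1 CPM in *ncs2*∆*elp6*∆ and 113, 123 and 204 CPM in wild type (log2 fold change −2.78, SE 0.46, adjusted p = 5.36e-05). The strains were well apart for both genes, and also for *PHO3*, the neighbouring acid phosphatase, which fell by 2.46. Of the genes for polyphosphate synthesis, *VTC3*, *VTC1* and *VTC4* fell by 2.39, 1.80 and 0.65 on the log2 scale. *VTC2* was not called, at −0.08 (adjusted p = 0.875). The inhibitor gene *PHO81* fell by 1.74. The activators were opposed. *PHO4* (YFR034C) had 848, 626 and 608 CPM in *ncs2*∆*elp6*∆ and 358, 260.0 and 284 CPM in wild type (log2 fold change 1.19, SE 0.23, adjusted p = 2.68e-04), and *PHO2* fell by 1.46. Of the low-affinity transporters, *PHO87* fell by 0.79 on the log2 scale (adjusted p = 0.0271). *PHO90* and *PHO91* had log2 fold changes of −0.48 (adjusted p = 0.197) and −0.32 (adjusted p = 0.429), and *PHO85* had −0.19 (adjusted p = 0.676). With the library factor as a covariate 7 genes stayed lower and *PHO4* higher, with a median of −0.66. The mean log2 CPM of the 17 genes relative to all genes tested was −0.31, −0.27 and −0.23 in the *ncs2*∆*elp6*∆ libraries and 0.53, 0.76 and 0.70 in wild type.

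Central carbon metabolism tended downward in the called genes, except in the citric acid and glyoxylate cycle. In glycolysis and fermentation 7 of 25 genes fell and 1 rose, with a median of −0.20, and 4 fell without wild-type replicate 2. *PFK1* (YGR240C), a subunit of phosphofructokinase and also among those 13 genes, had 1672, 1619 and 2435 CPM in *ncs2*∆*elp6*∆ and 5748, 9395 and 8614 CPM in wild type (log2 fold change −2.05, SE 0.32, adjusted p = 2.49e-05). *PDC5*, a minor pyruvate decarboxylase, fell by 2.58 (adjusted p = 1.57e-05). The rise was of *ALD4* (YOR374W), a mitochondrial aldehyde dehydrogenase like *ALD5*, with 155, 105 and 88.5 CPM in *ncs2*∆*elp6*∆ and 18.1, 41.1 and 36.4 CPM in wild type (log2 fold change 1.93, SE 0.36, adjusted p = 2.30e-04). Of 13 genes for hexose transport and glucose sensing 4 fell and none rose. *HXT1* (YHR094C), a low-affinity glucose transporter, had 51.8, 36.1 and 52.3 CPM in *ncs2*∆*elp6*∆ and 122, 130.0 and 197 CPM in wild type (log2 fold change −1.66, SE 0.37, adjusted p = 0.00113), and the glucose sensor gene *SNF3* fell by 1.60. Trehalose, glycogen and general stress genes had 7 of 19 lower and 1 higher, although their median was −0.10. *YGP1* (YNL160W), a wall protein induced by nutrient limitation, had 7.96, 12 and 4.02 CPM in *ncs2*∆*elp6*∆ and 95.3, 34.2 and 87.4 CPM in wild type (log2 fold change −3.06, SE 0.50, adjusted p = 4.39e-05). *GPH1*, the glycogen phosphorylase, fell by 1.73. The general stress factors *MSN2* and *MSN4* had log2 fold changes of 0.19 (adjusted p = 0.614) and 0.67 (adjusted p = 0.166). In the citric acid and glyoxylate cycle 4 of 23 rose and *MLS1* fell, with a median of 0.21. The malate dehydrogenase genes *MDH1*, *MDH2* and *MDH3* rose by 1.27, 0.90 and 0.99 on the log2 scale. *MDH2* was not called without replicate 2 of either strain, *MDH3* not without *ncs2*∆*elp6*∆ replicate 2 or 3 or wild-type replicate 1 or 3, and 1 gene of the list was called higher without *ncs2*∆*elp6*∆ replicate 2, 2 without *ncs2*∆*elp6*∆ replicate 3 or wild-type replicate 1 or 3. Respiratory chain genes had 1 of 11 higher and 2 lower, 1 lower without replicate 2 of either strain or *ncs2*∆*elp6*∆ replicate 3, with *COX7*, a cytochrome oxidase subunit, at −2.03.

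Lipid, nucleotide and cell wall genes were mixed. Of 24 ergosterol genes 4 rose and 3 fell. *ERG6* (YML008C), the sterol methyltransferase, had 1493, 1204 and 1405 CPM in *ncs2*∆*elp6*∆ and 817, 636 and 859 CPM in wild type (log2 fold change 0.82, SE 0.22, adjusted p = 0.00620), whereas *ERG26* (YGL001C), a decarboxylase of the same pathway, had 39.8, 96.3 and 96.6 CPM in *ncs2*∆*elp6*∆ and 436, 801 and 517 CPM in wild type (log2 fold change −2.87, SE 0.33, adjusted p = 7.31e-07). The number of ergosterol genes called higher was 2 without *ncs2*∆*elp6*∆ replicate 3 and 1 without wild-type replicate 3. In phospholipid and fatty acid synthesis 4 of 26 rose, with *OPI1*, the repressor of inositol-sensitive genes, at 1.23, and 7 fell, which became 4 without *ncs2*∆*elp6*∆ replicate 2 or wild-type replicate 3. Purine and one-carbon genes had a median of −0.46, with 5 of 24 lower and *IMD2*, an IMP dehydrogenase, higher by 2.02. The one-carbon genes *MTD1* and *GCV1* fell by 2.13 and 2.09 on the log2 scale. Of 10 pyrimidine genes 2 fell, *URA10* and *URA6*, and none rose. In the cell wall list 8 of 42 rose and 8 fell. *SLT2* (YHR030C), the MAP kinase of cell wall integrity, had 219, 196 and 246 CPM in *ncs2*∆*elp6*∆ and 90.7, 68.4 and 102 CPM in wild type (log2 fold change 1.32, SE 0.27, adjusted p = 4.58e-04), and its target factor *RLM1* rose by 1.22. *TIR1* (YER011W), a mannoprotein of cold and low oxygen, had 7.96, 21.1 and 20.1 CPM in *ncs2*∆*elp6*∆ and 109, 123 and 138 CPM in wild type (log2 fold change −2.82, SE 0.41, adjusted p = 1.02e-05). The number of wall genes called lower was 5 without *ncs2*∆*elp6*∆ replicate 2 and 3 without wild-type replicate 2.

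Genes for mating were lower in *ncs2*∆*elp6*∆. Of 15 tested genes of the pheromone pathway 7 fell and 1 rose, with a median of −0.81, and 3 of the 4 tested a-cell genes fell. *AGA1* (YNR044W), the anchor of the a-agglutinin, had 123, 99.3 and 44.3 CPM in *ncs2*∆*elp6*∆ and 454, 547 and 495 CPM in wild type (log2 fold change −2.46, SE 0.27, adjusted p = 4.77e-07). *FUS1* (YCL027W), needed for cell fusion, had at most 3 reads in any mutant library and was at least 6.30-fold lower than in wild type (adjusted p = 7.35e-05). With so few mutant reads, the direction of this fall is not independent of the filter. *STE2* (YFL026W), the receptor for alpha-factor, had 410.1, 512 and 427 CPM in *ncs2*∆*elp6*∆ and 776, 828 and 772 CPM in wild type (log2 fold change −0.81, SE 0.20, adjusted p = 0.00339), and *BAR1*, the protease that cuts this pheromone, fell by 1.26. The regulator *KAR4* rose by 1.65. Genes of meiosis were hardly read in these haploid cells. Of 17 listed genes 3 passed the filter, and *HOP1* and *REC8* fell by 2.09 and 1.99 on the log2 scale, with *HOP1* not called without wild-type replicate 1. Genes so little read can pass the filter through the strains where they are higher, so the direction of these falls is not independent of the filter. The list held 21, 71 and 46 reads in the *ncs2*∆*elp6*∆ libraries and 86, 65 and 68 in wild type. In nutrient signalling (TORC1, PKA and nitrogen) 5 of 33 rose and 7 fell. *LST7* (YGR057C), a partner in Gap1 sorting and TORC1 signalling, had at most 2 reads per mutant library and was at least 11.1-fold lower than in wild type (adjusted p = 3.50e-06). The direction of this fall is not independent of the filter either. *URE2*, a repressor of nitrogen catabolism genes, and *RAS2* rose by 1.75 and 1.39 on the log2 scale.

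Large nuclear and trafficking lists held genes called in both directions. For histones and chromatin remodelling 10 of 41 rose and 5 fell. *HHT2* (YNL031C), a histone H3 gene, had 864, 1583 and 797 CPM in *ncs2*∆*elp6*∆ and 395, 157 and 371 CPM in wild type (log2 fold change 1.80, SE 0.30, adjusted p = 4.71e-05), and the silencing gene *SIR3* fell by 1.82. The number of chromatin genes higher was 6 without wild-type replicate 2 and 4 without wild-type replicate 3, and the number lower was 3 without wild-type replicate 1 or 2. For RNA polymerase II and its cofactors 8 of 39 rose and 7 fell, and 2 rose without wild-type replicate 2, 5 without replicate 3 of either strain. The Mediator genes *MED2* and *MED7* rose by 1.79 and 1.26, and *SRB5* (YGR104C), another Mediator subunit, had 31.9, 42.1 and 60.4 CPM in *ncs2*∆*elp6*∆ and 327, 438 and 473 CPM in wild type (log2 fold change −3.18, SE 0.35, adjusted p = 4.77e-07). In DNA replication and repair 6 of 43 rose and 7 fell, with the recombination gene *RAD52* higher by 1.14 and *RAD50* lower, at −1.90, and 3 rose without wild-type replicate 2 or 3. In the cell cycle list 4 of 31 rose and 2 fell, with the mitotic cyclin gene *CLB4* higher by 1.49 and the transcription factor gene *SWI5* at −1.82. Of 31 splicing genes 5 rose, 2 without wild-type replicate 3, and 3 fell, with *PRP6*, a subunit of the tri-snRNP, at −1.93. Of 31 cytoskeletal genes 6 rose, 3 without wild-type replicate 3, and 4 fell, with the profilin gene *PFY1* at 1.45 and *END3*, an endocytosis factor, at −1.66. Of 16 genes for autophagy and vacuolar proteases 1 rose and 4 fell, 2 without wild-type replicate 3, with *ATG14*, a subunit of the lipid kinase complex of autophagy, at −1.75. For nuclear transport 4 of 46 rose and 7 fell, and for vesicle transport 4 of 39 rose and 7 fell. The number of nuclear transport genes higher was 2 without *ncs2*∆*elp6*∆ replicate 2 or wild-type replicate 3 and 1 without wild-type replicate 2. The Rab GTPase gene *YPT1* (YFL038C) had 864, 1776 and 898 CPM in *ncs2*∆*elp6*∆ and 318, 192 and 306 CPM in wild type (log2 fold change 2.11, SE 0.36, adjusted p = 7.06e-05). The importin-cargo exporter *CSE1* and the Golgi SNARE gene *SED5* fell by 2.03 and 2.21 on the log2 scale. The number of vesicle genes higher was 1 without *ncs2*∆*elp6*∆ replicate 2, 2 without wild-type replicate 2 or 3, and 7 without wild-type replicate 1. In all, the 60 lists hold 1290 of the genes tested, of which 240 rose and 174 fell, and 2088 tested genes are on no list, of which 213 rose and 389 fell.

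**Figure D3:**
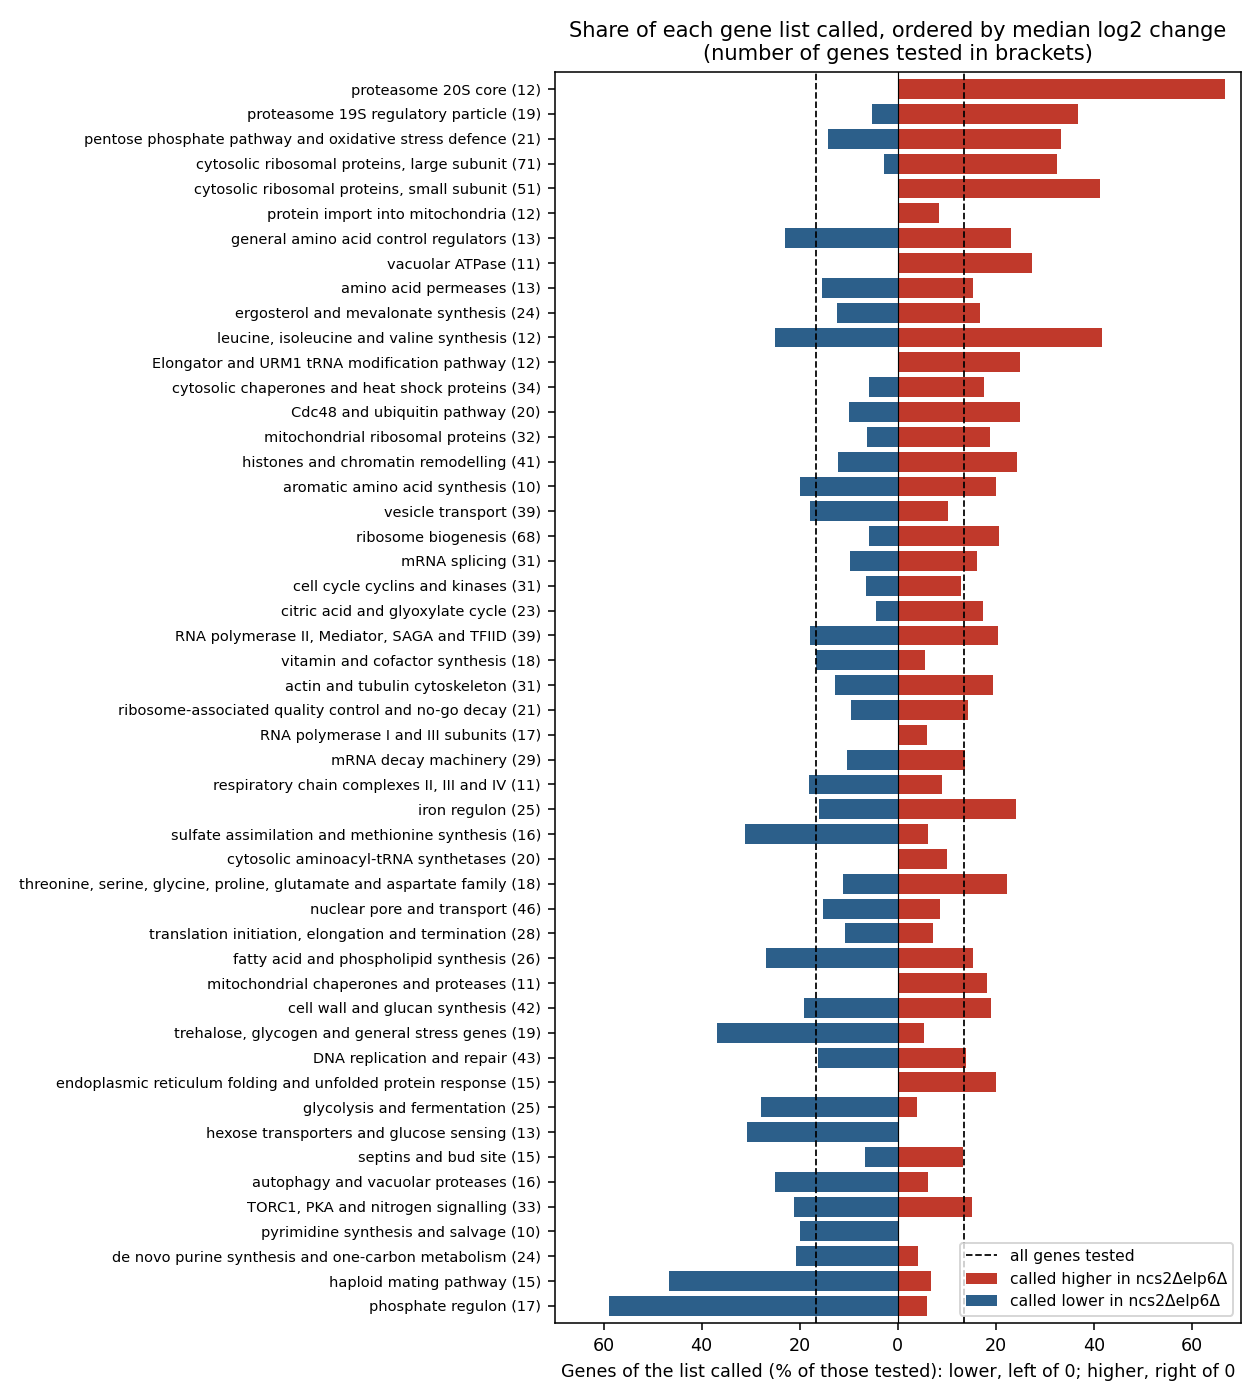
Share of each gene list with at least 10 genes tested that was called higher (red, right of 0) or lower (blue, left of 0) in *ncs2*∆*elp6*∆ compared with wild type, ordered by median log2 fold change, with dashed lines at the shares for all genes tested (13.4% higher, 16.7% lower). The proteasome lists head the order and the phosphate and mating lists close it.

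The direction of change followed gene length. Among the 3360 tested genes with a length in RefSeq, the shortest of 5 equal classes of genes (up to 972 bases) had a median log2 fold change of 0.42, and the longest (2595 bases or more) had −0.19. The classes between had 0.17, 0.08 and −0.03, from short to long. Reads rose for 24.4% of the shortest genes and for 4.47% of the longest, and fell for 13.8% and 23.1% of these. Across genes, Spearman's rho of the log2 fold change with length was −0.26, as a description of these libraries. The same order was seen without *HEL2*, with medians of 0.32 for the shortest and −0.13 for the longest. Some lists with many rises were of short genes, with a median length of 764.5 bases for tested 20S core genes, 821 for large-subunit and 768 for small-subunit ribosomal protein genes, against 1620 for all genes tested. Others were nearer to that length or above it, with 1290 bases for the 19S particle, 1332 for lysine, 1359 for arginine and 1744 for branched-chain genes. Phosphate genes had a median of 2166 bases. The part of length in these lists' changes was not tested. By chromosome, medians lay between −0.18 (chromosome I) and 0.24 (chromosome VI), except that the 11 genes tested on mitochondrial DNA had −0.93, with 6 lower and none higher. All listed reading frames of mitochondrial DNA, tested or not, held 0.154%, 0.183% and 0.233% of reads in *ncs2*∆*elp6*∆. In wild type they held 0.466%, 0.20% and 0.234%, so wild-type replicate 1 stood apart. Without it the median of the 11 tested genes was −0.41, with 2 lower and 1 higher. Of the 18 tested reading frames that RefSeq does not annotate, 13 fell and none rose, with a median of −2.21. The count table holds 530 such frames, and only these 18 passed the filter. A frame with few reads can pass it through the strains where it is higher, so the direction of these falls is not independent of the filter.

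**Figure D4:**
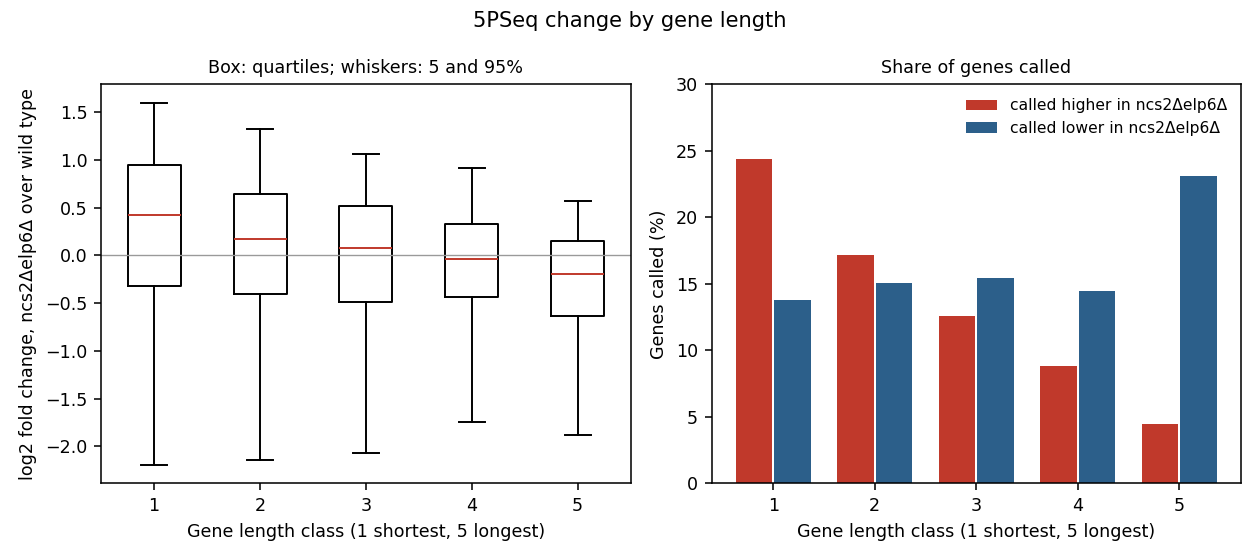
Left, log2 fold change of 5PSeq reads, *ncs2*∆*elp6*∆ over wild type, by class of gene length, 5 classes of nearly equal size (box, quartiles; line, median; whiskers, the central 90% of genes), and right, the percentage of genes called higher (red) and lower (blue) in each class. The median falls from the short to the long class, and the share called higher goes down to 4.47% in the longest genes.

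The same deletions were compared in cells without *HEL2*, in 6 libraries that the comparison above did not use. In *ncs2*∆*elp6*∆*hel2*∆ against *hel2*∆, 492 genes (14.6%) were called, 217 higher and 275 lower. Of the 1016 genes called with *HEL2* present, 978 (96.3%) had the same sign without it, 434 of 453 that rose and 544 of 563 that fell, against 78.5% of all genes tested. Both comparisons called 407 genes in the same direction, 40.1% of the calls with *HEL2* and 82.7% of those without. Pearson's r between the log2 fold changes was 0.79 across 3378 genes, which are not independent replicates. The library factor was also lower on average in the mutant of this pair. Its values lay between −0.98 and 0.46 in *ncs2*∆*elp6*∆*hel2*∆, against 0.30 and 1.47 at the ends of the *hel2*∆ range. The part of the library factor in the agreement between the comparisons was not tested. The median size of change of the 1016 genes, which were chosen on the first value, was 1.31 with *HEL2* and 0.78 without. Proteasome genes had similar medians without *HEL2*, 1.26 for the 20S core and 0.85 for the 19S particle, and so had arginine genes (1.66) and phosphate genes (−0.57). Other lists had different medians without *HEL2*. That of the lysine list was −0.18, with 1 of 8 genes higher and 1 lower, and that of the mating list −0.08, and these differences between lists were not tested. *PHO84* and *ARG4* had log2 fold changes of −3.30 and 2.69 there, close to their values with *HEL2*.

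The effect of the deletions differed between the *HEL2* backgrounds for 1 gene (0.0296% of those tested, adjusted p below 0.05 in edgeR's test of the interaction), where 328 genes had an unadjusted p under 0.05. This gene was *LYS2*. Its reads rose with *HEL2* present, as given above, but were 7, 8 and 10 in *ncs2*∆*elp6*∆*hel2*∆, against 40, 15 and 50 in *hel2*∆. The log2 fold change was −2.69 there (SE 0.36, adjusted p = 4.34e-05), and the difference between the effects was 4.18 (SE 0.45, adjusted p = 4.45e-06). The other 7 lysine genes tested passed no test of this difference. The strain labels name no change at *LYS2*. An unlabelled difference of *ncs2*∆*elp6*∆*hel2*∆ at this gene was not tested, and cannot be told apart here from an effect of the deletions.

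**Figure D5:**
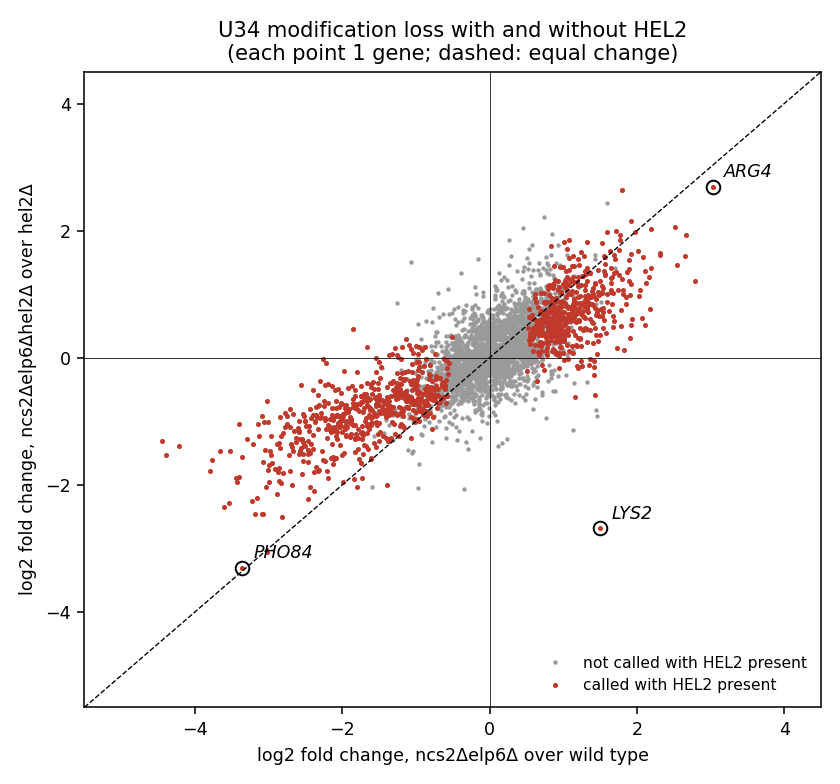
Log2 fold change of 5PSeq reads for the deletion of *NCS2* and *ELP6* with *HEL2* present (x axis, *ncs2*∆*elp6*∆ over wild type) and without it (y axis, *ncs2*∆*elp6*∆*hel2*∆ over *hel2*∆), with each point a gene, red where called on the x axis and grey where not, and the dashed line at equal change. Most red points keep their sign but lie nearer to 0 on the y axis, and *LYS2* stands apart at 1.50 and −2.69.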

How the data were processed

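Total RNA was made into 5PSeq libraries. The authors trimmed adapters (cutadapt), removed reads of noncoding RNA with STAR 2.5.3a, aligned the rest with Bowtie 1.2.3 to annotated open reading frames (build sacCer3), kept uniquely mapped sense reads and removed PCR duplicates by molecular barcodes (UMI-tools). The deposited values are raw counts per gene. All 12 columns were used, matched by label. Genes keep the table's names, and 5772 were matched by locus tag to RefSeq (assembly R64) for lengths and neighbours. Counts were filtered (filterByExpr, minimum count 10), scaled by TMM and fitted over 12 libraries with strain as the only factor in edgeR 4.0.16 (glmQLFit, glmQLFTest, R 4.3.3). Standard errors are the log2 fold change over the square root of F. DESeq2 1.42.0 and 8 other settings were alternatives. Scripts were tested on simulated data. Members, lists and the naming rule were chosen with earlier results of these data known. The rule takes the deleted and marker genes, 7 transcription factors, the 12 largest changes each way without overlap and with at least 60 reads, and up to 3 genes per list and direction. The most-read genes, the neighbours of the deletions and the phosphate genes beyond 3 per direction were named with their values in view. The rule also takes 1 gene for which no values are given here. A floor of 3 reads set the bounds written as "at least". Codon and promoter sequence were not used here.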

Additional observations from a re-analysis of the deposited data

Results flagged for a closer look

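*LYS2* was picked out because the effect of deleting *NCS2* and *ELP6* differed between cells with and without *HEL2* by a test of the difference itself. The difference was 4.18 on the log2 scale (with *HEL2* minus without, adjusted p = 4.45e-06 over 3378 genes, edgeR). It had 134, 136 and 132 reads in *ncs2*∆*elp6*∆ and 41, 30 and 17 in wild type, and 7, 8 and 10 in *ncs2*∆*elp6*∆*hel2*∆ against 40, 15 and 50 in *hel2*∆. The triple mutant was low in each of its 3 libraries, and the strain labels name no change at *LYS2*. An unlabelled difference of this strain at *LYS2* cannot be told apart from an effect of the deletions. Groups of 3 libraries were not screened for outliers.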

How the results depend on the processing

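The 1016 calls (453 higher, 563 lower) were recomputed under 9 settings and with each of the 6 libraries left out, and none was called in the opposite direction in any of these. DESeq2 called 800 genes and shared 798 of them, upper-quartile scaling called 1040, no filter on low counts 1186, and a fit of the 6 libraries alone 951. Fewer genes were called with at least 10 counts in every library (553, of which 264 higher and 289 lower, among 1412 tested), with all libraries thinned to the smallest (526, of which 214 higher and 312 lower, among 2466 tested), and with the library factor as a covariate (450, of which 142 higher and 308 lower). Leaving out replicate 2 of both strains together, a setting chosen after seeing the data, gave 644 calls, 224 of them higher. The share of calls that were higher was 44.6% as reported, 31.6% with the library factor and 34.8% without both replicates 2. With 1 library left out, between 297 (without wild-type replicate 2) and 464 genes (without wild-type replicate 1) were called higher. The cause of these shifts was not tested, apart from the smaller number of genes tested or reads kept. Same-numbered replicates did not deviate together (correlations of −0.03, −0.20 and 0.04), so the numbers were not taken as pairs, and with the replicate number as a block 959 genes were called and the difference between *HEL2* backgrounds again passed for 1 gene. Of 3723 values for single genes under these settings, 559 kept their direction but not their call, 124 of them with the library factor, and among genes called as reported 1 value turned round, *PCL1*, a G1 cyclin, at −0.14 with the library factor and 1.50 without. Genes not called, such as *MET17* and *MSN2*, also changed sign under some settings. At this depth a gene with few reads can show only large changes.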
